A study of Homo sapiens with 22 samples.

Results

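A set of 10 genes of mitophagy and autophagy was followed through the maturation of HUDEP-2 cells, a line of immortalized human erythroid progenitors. The genes were listed by symbol as genes of organelle clearance, with earlier results of these data known. All 10 symbols were found among the 59087 gene names of both count tables. They are the transcription factors FOXO3 and TFEB, the kinase ULK1, the mitophagy receptors BNIP3L and BNIP3, the ATG8 proteins GABARAP, GABARAPL1, GABARAPL2 and MAP1LC3B, and the cargo receptor SQSTM1. Past the filter on low counts, 10 of 10 were tested in the H2A.X experiment and 9 in the BAZ1B experiment, where TFEB was too low.

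A maturing red cell removes its mitochondria and other organelles before it enters the circulation. Autophagy does this by enclosing the organelle in a double membrane, which then fuses with a lysosome. ULK1 starts the process, lipid-anchored ATG8 proteins coat the growing membrane, and receptors tie the cargo to them. BNIP3L, also called NIX, sits in the outer mitochondrial membrane and is known for its need in mitochondrial clearance from reticulocytes. BNIP3 is its close relative and a well-known target of hypoxia signalling. FOXO3 and TFEB are activators of autophagy and lysosome genes.

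The study asked what the histone variant H2A.X and BAZ1B, the kinase that phosphorylates it on a tyrosine, do in late erythroid maturation. RNA-Seq was made from HUDEP-2 cells in expansion medium with SCF, EPO, dexamethasone and doxycycline (D0) and on D6 in a differentiation medium with plasma, heparin, holo-transferrin, insulin, SCF, EPO and doxycycline. At each day the H2A.X experiment had 2 libraries of WT and 3 of H2A.X KO cells and the BAZ1B experiment 3 of each genotype, 10 and 12 libraries in all. Both knockouts were made by CRISPR/Cas9 with pairs of guides that delete the H2A.X coding sequence or the region around the first BAZ1B exon. Each KO library stands for a subclone grown from a single cell. The paper also speaks of WT subclones, handled in the same way as the KO lines. A difference between KO and WT thus also holds what distinguishes these clones. All cells carry the transgenes that immortalized the line, which doxycycline keeps on. The 2 experiments were sequenced and counted as separate tables and are set side by side without a test between them.

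Counts of the targeted genes were lower in the knockouts. H2AFX, the older symbol of the H2A.X gene, fell by 1.5 on the log2 scale at D0 and by 1.52 at D6 (adjusted p = 0.0304 and 0.0233). BAZ1B fell by 0.40 and 0.38 (adjusted p = 0.00415 and 0.0025), with most of its transcript outside the deletion. Libraries held 11910141 to 21013004 counts in the H2A.X experiment and 33199408 to 41273244 in the BAZ1B experiment, and the biological coefficients of variation were 0.239 and 0.0865, so the first table resolves only larger changes. In the H2A.X experiment all KO libraries but replicate 3 at D6 carry the word Redo in their column names and no WT library does, and at D0 this mark and the genotype cannot be told apart. In that experiment log2 fold changes between KO and WT also rose with transcript length across genes, which are not independent replicates (Spearman's rho 0.499 at D0 and 0.549 at D6), against -0.0267 and 0.0439 in the BAZ1B experiment. Of 12 erythroid marker genes all had reads in each group but for 1 gene in BAZ1B KO at D0, and lymphocyte markers were at 0.065 CPM (counts scaled to a common library total) or below in sum. All values are from bulk RNA, in which fewer cells of a type and less RNA per cell cannot be told apart.

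**Figure D1:**
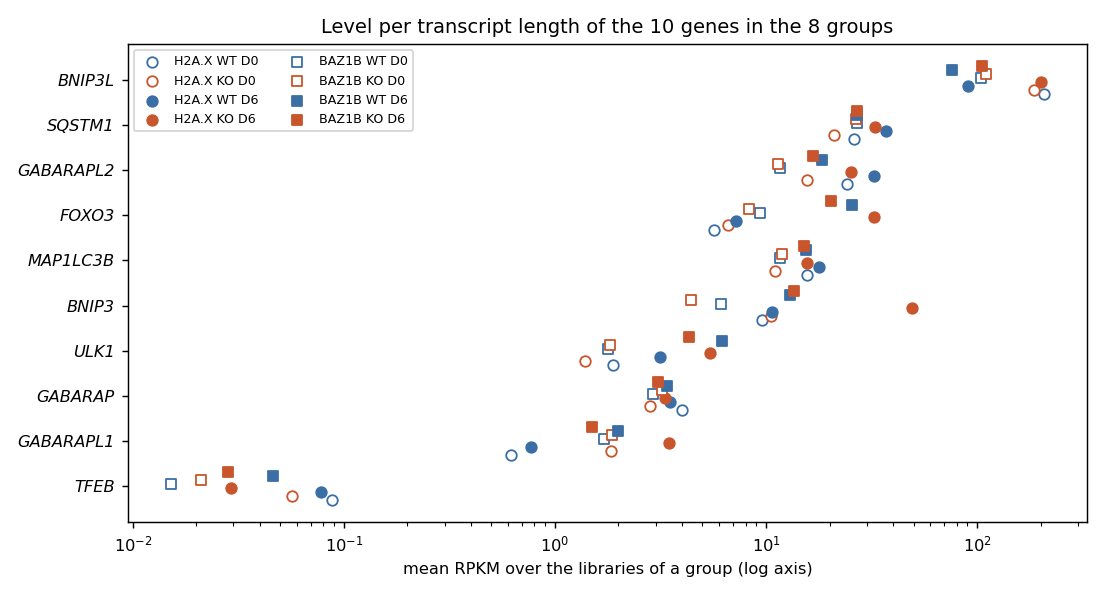
Mean RPKM (library-scaled reads per kilobase of all annotated exons, log axis) of each gene in the 8 groups. Circles are the H2A.X and squares the BAZ1B experiment, blue is WT and red KO. Open symbols are D0 and filled symbols D6. BNIP3L was highest in each group, from 76.4 to 207, and TFEB lowest, below 0.1.

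Levels were compared between genes as RPKM, which here divides by the joint length of all annotated exons of a gene. That length can exceed the length of the transcript in these cells, by an amount that differs between genes. BNIP3L was the most abundant of the 10 in each of the 8 groups, with group means from 76.4 to 207 RPKM, above 95.8% or more of the tested genes. In BAZ1B-experiment WT cells at D0 it stood at 104 ± 0.810 RPKM (SD, n = 3). SQSTM1, the p62 receptor that brings ubiquitin-marked cargo to the membrane, followed at 27.1 ± 0.347 RPKM. MAP1LC3B (11.7 ± 0.151) and GABARAPL2 (11.6 ± 0.640) came next and did not differ beyond their spread. Then came FOXO3 at 9.34 ± 0.0460 RPKM, BNIP3 at 6.13 ± 0.139 and GABARAP at 2.92 ± 0.501. ULK1 and GABARAPL1 were close to each other at 1.79 ± 0.00419 and 1.71 ± 0.0669 RPKM. TFEB was last, at 0.0152 ± 0.00539 RPKM. At D6 in the same WT cells the order changed. FOXO3 reached 25.5 ± 1.58 RPKM and lay within the spread of SQSTM1 at 27.0 ± 1.31. ULK1 stood above GABARAP (6.17 ± 0.768 against 3.38 ± 0.283), and GABARAPL2 above MAP1LC3B (18.4 ± 0.994 against 15.5 ± 0.398). BNIP3L was at 76.4 ± 4.48 RPKM, still the highest.

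Not all of these levels are equally sure. In the annotation, 48.2% of the exon bases of GABARAP are shared with 2 other genes, 691 bp of them with a readthrough gene on the same strand, and GABARAP had only 82 to 272 reads a library. SQSTM1 shares 22.4% of its exon bases with MRNIP and MGAT4B on the other strand, and whether the counting used strand is not settled by the sources used here, which name a stranded kit in the paper and an unstranded one in the labels. FOXO3B, a copy of FOXO3, held 3 to 163 reads a library, MAP1LC3B2 1 to 13, and the BNIP3 pseudogene BNIP3P1 0 to 76. GABARAPL3 and MAP1LC3BP1 had at most 1 read. TFEB had 2 to 16 reads.

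**Figure D2:**
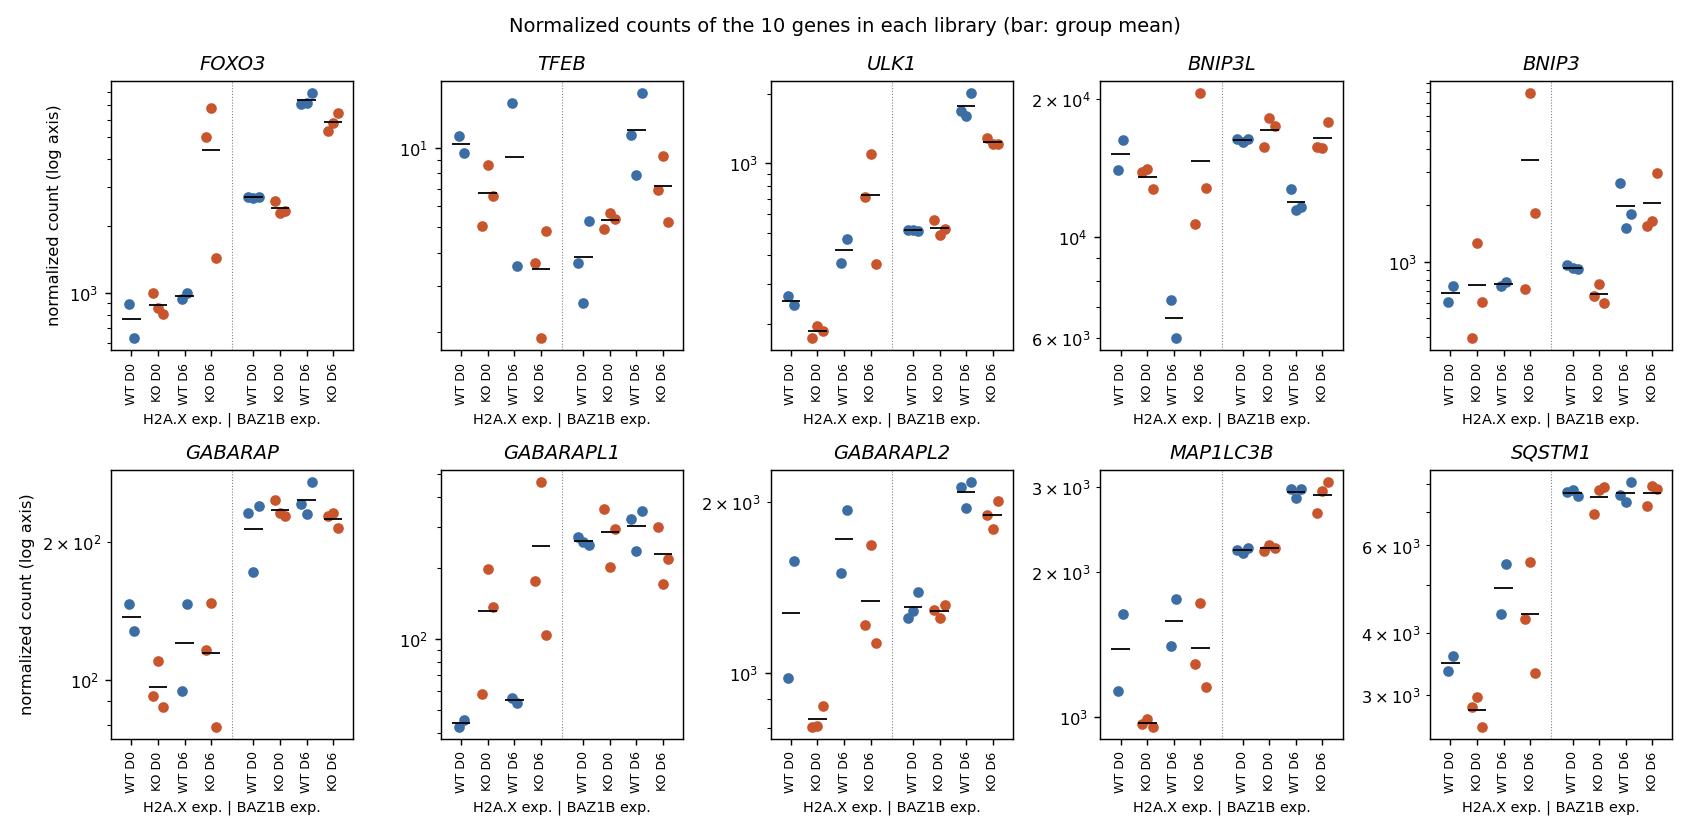
Normalized counts (log axis) of each of the 10 genes, 1 point per library, in the H2A.X experiment (left of the dotted line) and the BAZ1B experiment (right); blue is WT, red is KO and bars are group means. At D6 of the H2A.X experiment the KO points spread widely for FOXO3, BNIP3 and GABARAPL1, and replicate 2 was the highest library of that experiment for 7 of the 10 genes.

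The change from D0 to D6 was read first in the BAZ1B experiment, where replicates were tight. In WT cells 5 of 9 tested members rose (FOXO3, ULK1, BNIP3, GABARAPL2 and MAP1LC3B) and 1 fell (BNIP3L), on a background in which 33.5% of all tested genes rose, 35.4% fell and 68.9% passed in either direction. In KO cells the 5 that rose in WT rose too and none fell, against 33.2% of genes higher, 34.5% lower and 67.7% in either direction. The median log2 fold change of the members was 0.40 in WT and 0.36 in KO, beside medians over all tested genes of -0.02 in both. Cell type markers moved over the same days. All 12 erythroid markers rose in both genotypes, their sum going from 6290 to 7040 CPM at D0 to 38100 to 43700 at D6 in WT and from 7410 to 7900 to 32100 to 37900 in KO. All 7 tested mast cell and eosinophil markers, of a list of 10, fell in both, their sum going from 473 to 516 CPM to 33.1 to 44 in WT and from 455 to 623 to 13.2 to 39.9 in KO. At most 2 of the 10 had no reads in a group. The part of these changes in the members' values was not tested.

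FOXO3 (GRCh38, chromosome 6, 108559835 to 108684774, plus strand) had 2708, 2681 and 2691 normalized counts in WT at D0 and 7076, 7130 and 7888 at D6. In BAZ1B KO cells it had 2599, 2286 and 2326 at D0 and 5362, 5785 and 6460 at D6. No D6 library came near a D0 library in either genotype. The change was 2.73-fold in WT (log2 fold change 1.45, SE 0.0691, adjusted p = 1.32e-09) and 2.44-fold in KO (1.29, SE 0.0695, adjusted p = 4.16e-09).

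ULK1 (chromosome 12, 131894622 to 131923150, plus strand), the kinase at the start of autophagosome formation, had 511.0, 512.7 and 510.3 normalized counts in WT at D0 and 1687, 1599 and 2016 at D6. In KO cells it went from 565.5, 487.5 and 516.9 to 1286, 1214 and 1212. All D6 libraries were above all D0 libraries, but the KO libraries stopped short of the lowest WT library at D6. The change was 3.46-fold in WT (log2 fold change 1.79, SE 0.0841, adjusted p = 1.19e-09) and 2.37-fold in KO (1.24, SE 0.0845, adjusted p = 3.43e-08).

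BNIP3L (chromosome 8, 26383054 to 26505636, plus strand) went the other way in WT. Its normalized counts there were 16360, 16130 and 16340 at D0 and 12710, 11440 and 11590 at D6, which was a change of -0.45 on the log2 scale (SE 0.0639, adjusted p = 3.45e-05). In KO cells they were 15720, 18210 and 17510 at D0 and 15730, 15670 and 17850 at D6, where the groups overlapped and the change was -0.06 (SE 0.0637, adjusted p = 0.403). Corrected for transcript length and GC content, the KO change was -0.14 and passed the threshold (adjusted p = 0.0287). Of BNIP3L and BNIP3, the more abundant transcript, that of BNIP3L, was thus lower at D6 than at D0 in WT. That of BNIP3 was higher.

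BNIP3 (chromosome 10, 131967684 to 131981967, minus strand) rose from 956.1, 927.1 and 914.9 to 2620, 1523 and 1804 normalized counts in WT (log2 fold change 1.09, SE 0.233, adjusted p = 0.00104). In KO cells it rose from 660.0, 759.4 and 605.7 to 1550, 1651 and 2965 (1.6, SE 0.239, adjusted p = 5.51e-05). Each genotype had 1 D6 library far above its other 2, replicate 1 in WT and replicate 3 in KO.

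Of the ATG8 proteins, GABARAPL2 (chromosome 16, 75566375 to 75577881, plus strand) rose from 1250, 1286 and 1389 to 2120, 1952 and 2165 normalized counts in WT, 1.59-fold (adjusted p = 3.64e-07), and from 1289, 1249 and 1317 to 1891, 1788 and 2002 in KO, 1.48-fold (adjusted p = 2.21e-06). MAP1LC3B (chromosome 16, 87383953 to 87404779, plus strand), which encodes the LC3B protein widely used as the autophagosome marker, rose from 2216, 2187 and 2244 to 2974, 2841 and 2969 in WT, 1.32-fold (adjusted p = 9.73e-06), and from 2211, 2279 and 2242 to 2644, 2941 and 3071 in KO, 1.29-fold (adjusted p = 2.69e-05). Both had D0 and D6 libraries that did not overlap. GABARAP and GABARAPL1 did not pass the threshold in either genotype. GABARAP (chromosome 17, 7240008 to 7242449, minus strand) had 172.3 to 271.0 normalized counts in the 12 libraries, with the days and genotypes overlapping. GABARAPL1 (chromosome 12, 10212458 to 10223128, plus strand) had 322.5, 236.5 and 347.6 normalized counts in WT at D6 and 298.2, 170.6 and 217.7 in KO, and its change in KO was -0.31 (SE 0.226, adjusted p = 0.246). The D0 and D6 libraries of the same KO subclone deviated together, and with a term for the replicate number (a replicate block) that change was -0.31 with an adjusted p of 0.036.

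SQSTM1 (chromosome 5, 179806398 to 179838078, plus strand) was level across the BAZ1B experiment. Its 12 libraries lay between 6950 and 8061 normalized counts, and the log2 fold change between days was -0.0033 in WT (SE 0.0537) and 0.02 in KO (SE 0.0537), neither past the threshold. TFEB (chromosome 6, 41683978 to 41736259, minus strand) was not tested here, with 3 to 6 reads in WT at D0 and 7 to 16 at D6, and 5 to 8 in the KO libraries.

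**Figure D3:**
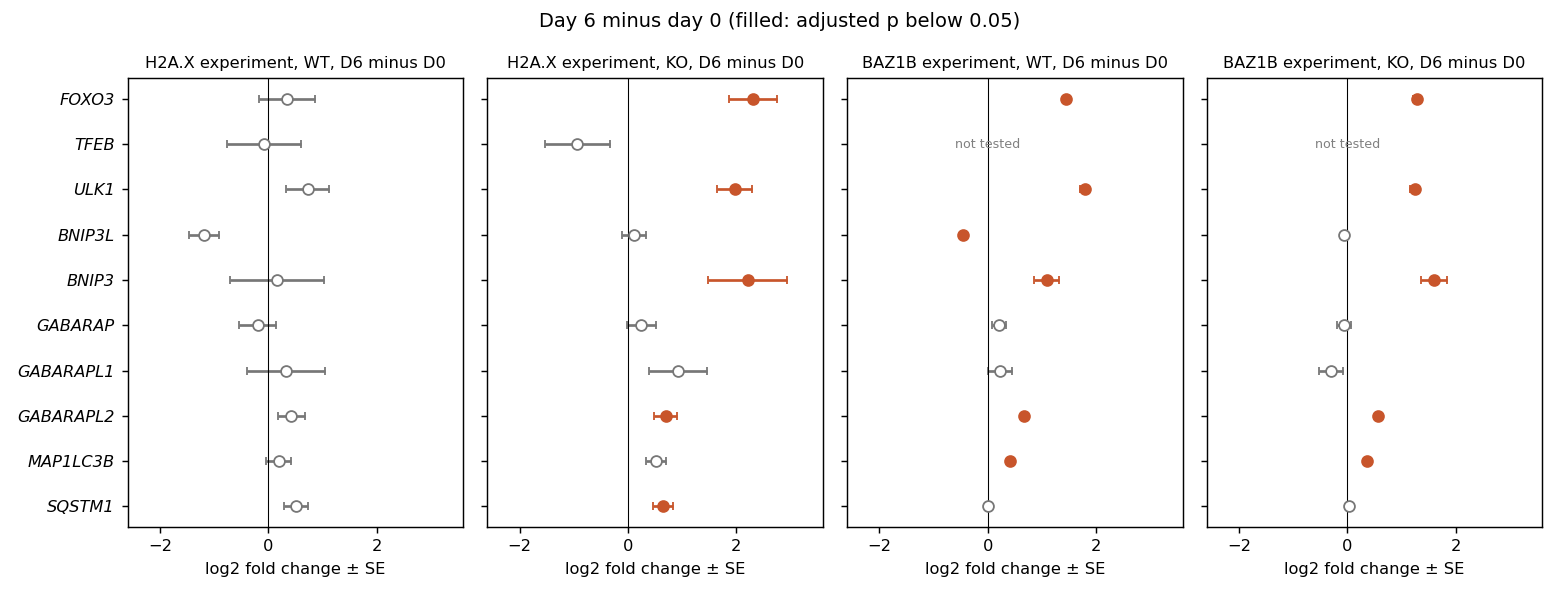
Log2 fold change between D6 and D0 in each genotype of each experiment, with its SE; filled points had an adjusted p below 0.05. FOXO3, ULK1, BNIP3 and GABARAPL2 were filled and positive in 3 of the 4 panels, all but WT of the H2A.X experiment.

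In the H2A.X experiment, the same change was called in KO cells and not in WT cells. In KO, 5 of 10 members rose (FOXO3, ULK1, BNIP3, GABARAPL2 and SQSTM1) and none fell, where 14.8% of all tested genes rose, 16.1% fell and 30.9% passed in either direction. In WT none of 10 passed, where 0.839% of genes rose, 1.16% fell and 2% passed in either direction. At an unadjusted p below 0.05 there were 2 in WT, and DESeq2 called 1. The median of the members was 0.67 in KO and 0.26 in WT, beside 0.02 and 0.01 over all tested genes. Cell type markers moved here too. In KO 11 of 12 erythroid markers rose, from a sum of 11900 to 15900 CPM to 42700 to 71500, and all 6 tested mast cell and eosinophil markers fell, from 212 to 428 CPM to 3.51 to 14.4, with 2 of the 10 at 0 at D0 and 4 at D6. In WT none of either list passed, with erythroid sums of 23400 to 31900 and 36700 to 62200 CPM and mast cell and eosinophil sums of 104 to 140 and 145 to 231, with 5 of the 10 at 0 at D0 and 4 at D6. The part of these changes in the members' values was not tested.

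FOXO3 went from 896.7 and 629.4 normalized counts at D0 to 937.8 and 996.9 at D6 in WT, and from 996.8, 855.0 and 808.4 to 5000, 6756 and 1435 in KO. At D0 the genotypes overlapped, while at D6 KO replicates 1 and 2 were far above the rest and replicate 3 was nearer to WT. The log2 fold change was 0.34 in WT (SE 0.520, adjusted p = 0.761) and 2.31 in KO (SE 0.438, adjusted p = 0.00354). With KO replicates 1 and 2 of D6 left out, which are the libraries marked Redo, the KO value was 0.70. Only KO replicate 3 then stands at D6, without the mark, against KO libraries of D0 that all carry it. The day and the mark cannot be told apart in that fit.

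ULK1 went from 263.9 and 241.7 to 369.0 and 470.7 in WT and from 174.2, 196.6 and 186.7 to 714.4, 1101 and 364.9 in KO. All D6 libraries were above all D0 libraries in both genotypes. The log2 fold change was 0.73 in WT (SE 0.395, adjusted p = 0.324) and 1.97 in KO (SE 0.327, adjusted p = 0.00184). Without the Redo libraries of D6 the KO value was 0.98, again with a single KO library at D6.

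BNIP3L went from 14010 and 16260 normalized counts to 7268 and 6001 in WT, and from 13840, 14040 and 12740 to 10670, 20600 and 12760 in KO. Both WT libraries fell below each of the KO libraries at D6. The WT log2 fold change was -1.19 (SE 0.275, adjusted p = 0.0575), and since the D0 and D6 libraries of the same number deviated together, the fit with the replicate block is given too, where it was -1.19 with an adjusted p of 0.0185. In KO the change was 0.12 (SE 0.222, adjusted p = 0.728), and it was -0.03 after the length and GC correction.

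BNIP3 had 612.6 and 745.4 normalized counts in WT at D0 and 744.8 and 776.7 at D6. In KO it had 393.1, 1260 and 611.8 at D0 and 717.2, 7914 and 1823 at D6. Each KO subclone was higher at D6 than at D0, by 1.82-, 6.28- and 2.98-fold, yet the D0 and D6 groups overlapped since replicate 2 was already high at D0. The log2 fold change of 2.21 in KO (SE 0.731, adjusted p = 0.0432) rested on that library, and without KO replicate 2 of D6 it was 0.75 (adjusted p = 0.292). Without KO replicate 2 of D0 it was 2.79 (adjusted p = 0.0442). The change also missed the threshold without KO replicate 1 or 3 of D0 (adjusted p = 0.13 and 0.127) and without any single WT library (adjusted p from 0.0619 to 0.0636). The pseudogene BNIP3P1 had 76 reads in the same library and 0 to 22 in each of the others.

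GABARAPL2 rose in KO by 0.69 (SE 0.210, adjusted p = 0.0304) and SQSTM1 by 0.65 (SE 0.185, adjusted p = 0.0239). SQSTM1 had 2828, 2963 and 2585 normalized counts in KO at D0 and 4254, 5552 and 3310 at D6, and 3355 and 3586 in WT at D0 and 4362 and 5500 at D6, where the WT change was 0.51 (SE 0.226, adjusted p = 0.234). MAP1LC3B changed by 0.52 in KO (SE 0.189, adjusted p = 0.0613), and by 0.50 with the replicate block, where it passed (adjusted p = 0.0225). Without KO replicate 2 of D6 neither GABARAPL2 (adjusted p = 0.112) nor SQSTM1 (adjusted p = 0.0816) passed, and neither did without any single KO library of D0 (adjusted p from 0.0575 to 0.093).

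FOXO3, ULK1, BNIP3 and GABARAPL2 thus rose from D0 to D6 in the same 3 arms. Their upstream sequences are shown because these are the members called higher at D6 in all 3 arms. Whether they move together was not tested. MAP1LC3B was called in both BAZ1B arms and missed the threshold in H2A.X KO (0.52, adjusted p = 0.0613). Of the 10 genes 9, BNIP3L excepted, were found in the RefSeq promoter table (GRCh38.p14). Only bases outside the annotated gene are printed, 5′ to 3′ on the gene's strand, and capitals mark the searched letters that were found.
FOXO3 (chr6:108559575-108559824, plus strand): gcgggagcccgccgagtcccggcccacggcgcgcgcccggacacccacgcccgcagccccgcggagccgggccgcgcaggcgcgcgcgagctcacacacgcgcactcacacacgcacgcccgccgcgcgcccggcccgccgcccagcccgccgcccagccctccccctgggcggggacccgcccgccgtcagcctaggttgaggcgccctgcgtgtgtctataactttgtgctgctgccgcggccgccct
ULK1 (chr12:131894372-131894621, plus strand): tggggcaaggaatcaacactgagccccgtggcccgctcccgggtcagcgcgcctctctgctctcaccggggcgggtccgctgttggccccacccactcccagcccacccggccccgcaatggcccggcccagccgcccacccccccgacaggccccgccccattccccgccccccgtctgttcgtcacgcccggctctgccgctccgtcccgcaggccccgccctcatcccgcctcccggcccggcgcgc
BNIP3 (chr10:131981968-131982173, minus strand): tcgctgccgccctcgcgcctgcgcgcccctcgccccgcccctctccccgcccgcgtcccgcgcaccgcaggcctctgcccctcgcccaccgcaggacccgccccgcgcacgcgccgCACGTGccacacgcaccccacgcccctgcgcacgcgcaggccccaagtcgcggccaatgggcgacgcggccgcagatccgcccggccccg
GABARAPL2 (chr16:75566129-75566374, plus strand): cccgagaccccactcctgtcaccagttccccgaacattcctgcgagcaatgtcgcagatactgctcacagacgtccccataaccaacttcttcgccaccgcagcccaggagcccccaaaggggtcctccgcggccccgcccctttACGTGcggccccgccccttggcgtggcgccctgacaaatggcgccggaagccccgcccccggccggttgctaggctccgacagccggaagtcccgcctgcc
The 250 bases before each RefSeq start were searched on both strands. The E-box CACGTG is read by TFEB and its relatives. The forkhead site was searched as GTAAACA. For GATA factors the letters AGATAA were searched, and so was the form that differs in its first letter, TGATAA. The core of the hypoxia response element was searched as ACGTG, which also lies within the E-box. The E-box occurred in 1 of the 16 windows of the 9 members, that of BNIP3 at position -134, and in 6.34% of all 35116 windows of the table. The hypoxia core occurred in 3 of the 16 windows and in 18.5% of all windows. These were the BNIP3 window, in which it is part of the E-box, the GABARAPL2 window at position -105, and the window of another FOXO3 start that is not printed. The forkhead letters occurred in none of the 16 and in 2.98% of all windows. Neither GATA form occurred in them, against 9.17% and 6.66% of all windows. The printed stretches were rich in G and C, from 68.7% in GABARAPL2 to 82.5% in BNIP3. Such matches describe letters in a window and not a bound site.

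**Figure D4:**
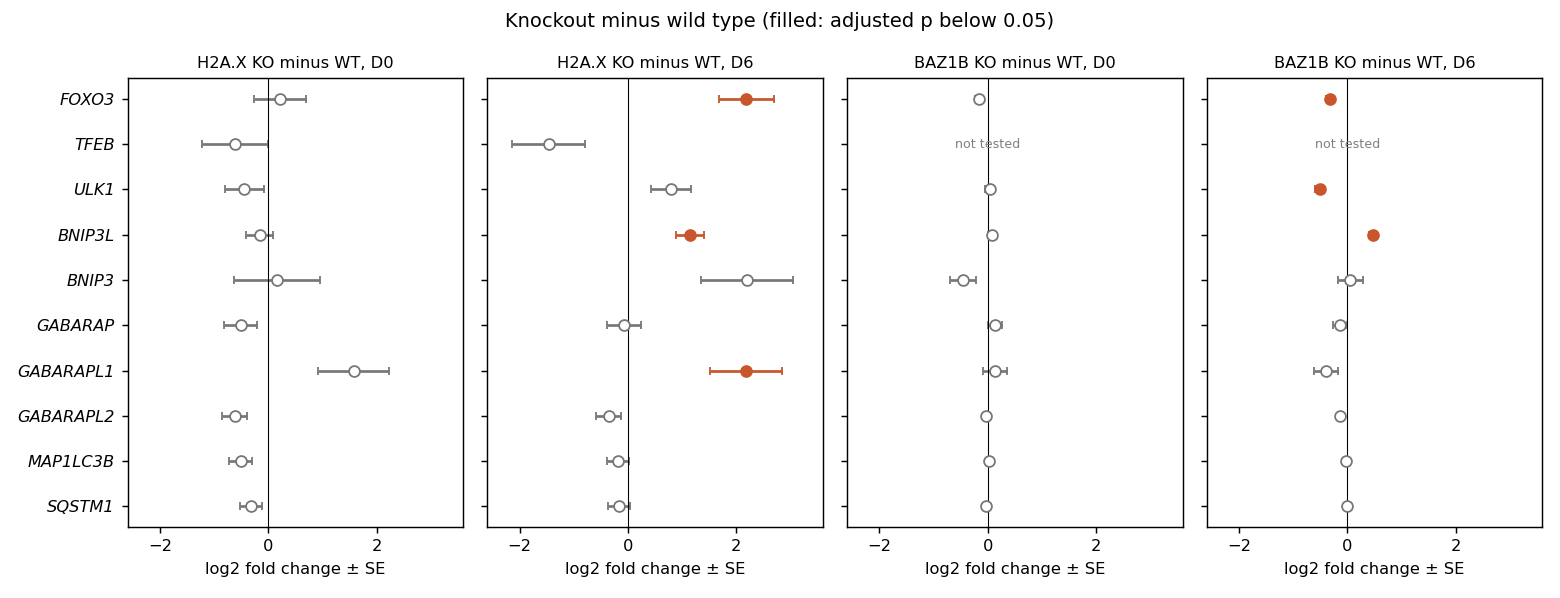
Log2 fold change between KO and WT with its SE, at D0 and D6 of both experiments; filled points had an adjusted p below 0.05. No gene was filled at D0 in either experiment, FOXO3, BNIP3L and GABARAPL1 were filled at D6 of the H2A.X experiment, and FOXO3, ULK1 and BNIP3L at D6 of the BAZ1B experiment.

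At D0 no member passed between KO and WT in either experiment, though other settings of edgeR called some. In the H2A.X experiment 0 of 10 passed, where 18.4% of all tested genes were higher, 16.7% lower and 35.1% passed in either direction. At an unadjusted p below 0.05 there were 3 members, GABARAPL1 (log2 fold change 1.58, SE 0.655, adjusted p = 0.0839), GABARAPL2 (-0.62, SE 0.231, adjusted p = 0.0589) and MAP1LC3B (-0.51, SE 0.209, adjusted p = 0.0799), and DESeq2 called 1 of 10. Same-numbered KO and WT libraries of this experiment deviated together, weakly, though no source says what a number shared by KO and WT marks. With the replicate block GABARAPL1 (1.65, adjusted p = 0.0433) and GABARAPL2 (-0.54, adjusted p = 0.0470) passed. Both also passed with no filter on low counts (adjusted p = 0.000186 and 0.0207), where 2708 of 25504 genes were higher and 2233 lower. GABARAPL1 had 42.46 and 45.47 normalized counts in WT and 58.34, 198.3 and 137.3 in KO, without overlap, though KO replicate 1 was near WT. In all, 7 of the 10 members had KO libraries that did not overlap WT, where 70.3% of all tested genes did not. The calls over all genes were far fewer without WT replicate 2 of D0, which leaves 1 WT library at that day. Cell type markers differed too, with 9 of 12 erythroid markers lower in KO and none higher. Of 6 tested mast cell and eosinophil markers 4 were higher and none lower, and the 1 tested megakaryocyte marker was higher. The part of these differences in the members' values at D0 was not tested. In the BAZ1B experiment 0 of 9 passed, where 1.25% of genes were higher, 2.64% lower and 3.88% passed in either direction. There 1 member had an unadjusted p below 0.05 (FOXO3, -0.16, SE 0.0695, adjusted p = 0.269), and DESeq2 called 0. With no filter on low counts FOXO3 (-0.17, adjusted p = 0.0457) and BNIP3 (-0.47, adjusted p = 1.13e-08) passed, where 478 of 27165 genes were higher and 723 lower. The filter does not remove BNIP3, which had 566 to 1076 reads in these libraries. With the filter it was at -0.46 (SE 0.241, adjusted p = 0.389), and why the adjusted p changed was not tested. In KO 1 of 12 erythroid markers was higher and 3 were lower, and 2 of 7 tested mast cell and eosinophil markers were higher.

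At D6 of the H2A.X experiment 3 of 10 members were higher in KO and none lower, where 22.2% of all tested genes were higher, 20.9% lower and 43.1% passed in either direction. FOXO3 was 4.55-fold higher (log2 fold change 2.18, SE 0.511, adjusted p = 0.00833). BNIP3L was 2.21-fold higher (1.15, SE 0.257, adjusted p = 0.00731), with the WT libraries at 7268 and 6001 and the KO libraries at 10670, 20600 and 12760 normalized counts. GABARAPL1, a close relative of GABARAP, was 4.51-fold higher (2.17, SE 0.667, adjusted p = 0.0248), with 55.97 and 53.69 normalized counts in WT and 175.4, 463.8 and 104.3 in KO. WT and KO libraries did not overlap for any of the 3, and 63.3% of all tested genes had no overlap here, with 2 WT libraries. BNIP3 had a log2 fold change of 2.20 with an SE of 0.856 (adjusted p = 0.0604) and overlapped, and without KO replicate 2 of D6 it fell to 0.74 (adjusted p = 0.291). ULK1 had one of 0.79 (SE 0.361, adjusted p = 0.0988), and with the replicate block it was 0.91 and passed (adjusted p = 0.0337). TFEB had 13 and 2 reads in WT and 2 to 5 in KO (adjusted p = 0.101). GABARAP, GABARAPL2, MAP1LC3B and SQSTM1 had log2 fold changes from -0.36 to -0.07, none past the threshold, and the length and GC correction turned GABARAP, MAP1LC3B and SQSTM1 to 0.75, 0.01 and 0.19.

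These 3 calls all needed WT replicate 2 of D6 and differed in whether they needed other libraries. With the Redo libraries of D6 left out, KO replicate 3 stood alone, so that only effect sizes are given. The log2 fold changes were then 0.95 for BNIP3L, 0.58 for FOXO3 and 0.93 for GABARAPL1. Without WT replicate 2 of D6, the shallowest library, none of the 3 passed (adjusted p = 0.0787 for FOXO3, 0.0815 for BNIP3L and 0.140 for GABARAPL1), while their log2 fold changes were 2.26, 1.04 and 2.17, and the calls over all genes went from 5700 to 152. GABARAPL1 also missed the threshold without WT replicate 1 of D6, where its log2 fold change was 2.23 (adjusted p = 0.103), or without KO replicate 2 of D6, where it dropped to 1.35 (adjusted p = 0.0682). Without KO replicate 3 of D6, ULK1 and BNIP3 passed as well, 5 in all. With the length and GC correction the 3 genes stayed called, at 1.6 for FOXO3 (adjusted p = 0.0275), 0.94 for BNIP3L (adjusted p = 0.0199) and 2.27 for GABARAPL1 (adjusted p = 0.0358). The copy FOXO3B had 7 and 3 reads in WT and 21 to 49 in KO, a log2 fold change of 2.10 (adjusted p = 0.0108). Mast cell and eosinophil markers, a list of 10 genes, summed to 145 to 231 CPM in WT at D6 and 3.51 to 14.4 in KO, with 4 of the genes at 0 in each group, and erythroid markers to 36700 to 62200 and 42700 to 71500. Of the 6 tested mast cell and eosinophil markers, 1 was higher in KO, 2 were lower and 3 were not called. Of the 12 erythroid markers, 1 was higher and 1 lower. The part of these differences in the members' values was not tested.

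At D6 of the BAZ1B experiment 1 of 9 members was higher in KO and 2 were lower, where 6.87% of all tested genes were higher, 5.97% lower and 12.8% passed in either direction. BNIP3L was 1.38-fold higher (log2 fold change 0.46, SE 0.0640, adjusted p = 0.000495), with 12710, 11440 and 11590 normalized counts in WT and 15730, 15670 and 17850 in KO. FOXO3 was lower (log2 fold change -0.33, SE 0.0673, adjusted p = 0.0065). ULK1 was also lower (-0.51, SE 0.0804, adjusted p = 0.00115). For these 3 genes no KO library lay within the WT range, as for 30.8% of all tested genes. The other 6 tested members had log2 fold changes from -0.40 (GABARAPL1, SE 0.226) to 0.05 (BNIP3, SE 0.227). All 3 calls held in each of 18 alternative settings, every single library left out among them. Megakaryocyte markers, 6 genes with 3 at 0 in each group, summed to 8.43 to 10.4 CPM in WT and 1.48 to 4.80 in KO, mast cell and eosinophil markers to 33.1 to 44 and 13.2 to 39.9, and erythroid markers to 38100 to 43700 and 32100 to 37900. The 1 tested megakaryocyte marker, 1 of 7 tested mast cell and eosinophil markers and 5 of 12 erythroid markers were lower in KO, and none were higher. Their part in the members' differences was not tested.

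Side by side, BNIP3L was higher in the KO libraries than in the WT libraries at D6 of both experiments, by 1.15 and 0.46 on the log2 scale. FOXO3 had opposite directions, 2.18 for H2A.X KO and -0.33 for BAZ1B KO. From D0 to D6 FOXO3 had log2 fold changes of 0.34 (SE 0.520, not past the threshold) in WT of the H2A.X experiment and 1.45 (SE 0.0691) in WT of the BAZ1B experiment. Whether the experiments differ was not tested, since the tables have no library in common.

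**Figure D5:**
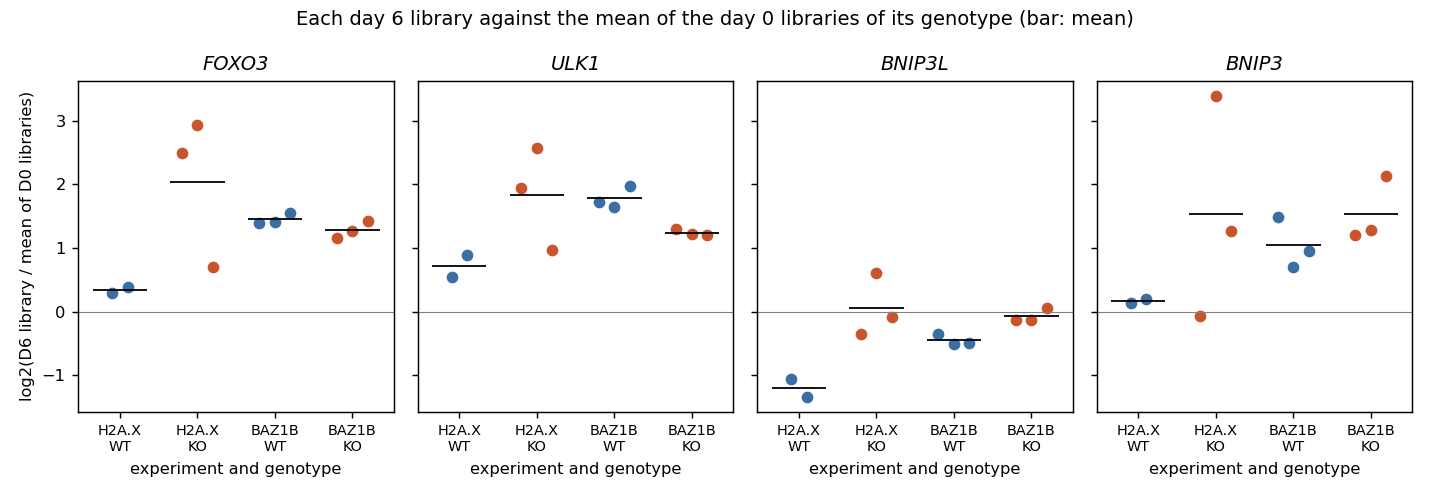
Log2 ratio of the normalized count of each D6 library to the mean of the D0 libraries of its genotype, for FOXO3, ULK1, BNIP3L and BNIP3; blue is WT, red is KO, bars are means, and the spread at D0 is not shown. BNIP3L points of the H2A.X experiment were -1.06 and -1.33 for WT, with -0.34, 0.61 and -0.09 for KO. Those of the BAZ1B experiment were -0.36, -0.51 and -0.49 for WT, with -0.12, -0.13 and 0.06 for KO. Each experiment is read on its own, and the share of all genes that separate in this way was not tested.

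The KO effects of D6 and D0 were then subtracted, to ask whether the knockout changed the course from D0 to D6. In the BAZ1B experiment 2 of 9 members passed, where 1.58% of all tested genes were more positive, 0.893% more negative and 2.47% passed in either direction. ULK1 rose less in KO (-0.55, SE 0.118, adjusted p = 0.0306). BNIP3L was more positive (0.39, SE 0.0902, adjusted p = 0.0431). Both differences were close to the threshold. The call was lost for both genes without any single WT library of D0, without KO replicate 3 of D0 or without KO replicate 3 of D6. It was also lost for ULK1 without WT replicate 1 of D6, and for BNIP3L without WT replicate 2 or 3 of D6. Over the 12 fits that left out 1 library the values stayed between -0.62 and -0.45 for ULK1 and between 0.32 and 0.44 for BNIP3L.

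In the H2A.X experiment 0 of 10 passed this test, where 0.302% of genes were more positive, 1.04% more negative and 1.34% passed in either direction. At an unadjusted p below 0.05 there were 3 members, FOXO3 (1.97, SE 0.674, adjusted p = 0.202), ULK1 (1.24, SE 0.507, adjusted p = 0.280) and BNIP3L (1.31, SE 0.352, adjusted p = 0.108), and DESeq2 called 2. Same-numbered libraries of D6 and D0 had BNIP3L ratios of 0.519 and 0.369 in WT and 0.771, 1.47 and 1 in KO. With the replicate block its difference was 1.25 and passed (adjusted p = 0.0454).

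The wider pathway was read from lists of autophagy, mitophagy and lysosome genes that do not hold the 10 members. From D0 to D6 in WT of the BAZ1B experiment, 37 of 78 tested list genes rose and 27 fell, beside 33.5% and 35.4% of all tested genes. Of 7 ATG9, ATG2 and WIPI genes, which extend the membrane, 6 rose, led by WIPI1 (log2 fold change 2.59, SE 0.119, adjusted p = 9.64e-10). Of 10 genes of ATG8 conjugation 5 rose and 3 fell, with the protease gene ATG4A at 1.6 (SE 0.0764, adjusted p = 1.34e-09). Of 8 other mitophagy receptors and PINK1 pathway genes, 4 rose and none fell. Fusion genes were split, with 3 higher and 4 lower, among them the SNARE VAMP8 at -1.17 (SE 0.0586, adjusted p = 1.9e-09), and so were 17 genes of lysosomal enzymes and the proton pump, with 8 higher and 8 lower, among them alpha-galactosidase GLA at -1.24 (SE 0.0582, adjusted p = 1.2e-09). In KO 40 rose and 25 fell, beside 33.2% and 34.5% of all genes, with WIPI1 at 2.41, ATG4A at 1.34 and GLA at -1.38. The list median was 0.13 in WT and 0.18 in KO.

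In the H2A.X experiment 14 of 77 list genes rose from D0 to D6 in KO and 9 fell, near the 14.8% and 16.1% of all tested genes, and none passed in WT, where 2% of all genes did. The 4 leading genes in KO were ATG4D (1.44, SE 0.200, adjusted p = 0.000753), the mitophagy receptor gene OPTN (2.11, SE 0.312, adjusted p = 0.00104), the lysosomal channel gene MCOLN1 (1.01, SE 0.156, adjusted p = 0.00127) and WIPI1 (2.34, SE 0.362, adjusted p = 0.00128). Between KO and WT at D6, 21 were higher and 10 lower, beside 22.2% and 20.9% of all genes, with a list median of 0.17 beside -0.01 over all genes. All 4 other genes of the ULK complex passed, 3 higher and ATG101 lower (-1.06, SE 0.202, adjusted p = 0.00462). The AMPK gene PRKAA1 was higher (1.15, SE 0.202, adjusted p = 0.0041), as was PIK3R4 of the class III PI3K complex (1.05, SE 0.194, adjusted p = 0.00440), and the mTOR partner MLST8 was lower (-0.94, SE 0.181, adjusted p = 0.00468). At D0, 11 list genes were higher and 9 lower in KO, smaller shares than the 18.4% and 16.7% of all genes, among them MTOR (1.08, SE 0.180, adjusted p = 0.0055), ATG4D (-1.46, SE 0.217, adjusted p = 0.00431), ATG101 (-0.98, SE 0.199, adjusted p = 0.00864) and the cathepsin gene CTSD (-1.13, SE 0.230, adjusted p = 0.00865).

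Between BAZ1B KO and WT, 4 of 78 list genes were higher and 9 lower at D6, where 6.87% and 5.97% of all genes were, and 2 were lower at D0, where 2.64% of all genes were. At D6 the leading genes were the AMPK subunit gene PRKAG1 (0.44, SE 0.0417, adjusted p = 3.24e-05), ATG9A (-0.31, SE 0.0498, adjusted p = 0.00122), ATG3 (0.21, SE 0.0398, adjusted p = 0.00384) and FOXO4, a relative of FOXO3 (-0.32, SE 0.0630, adjusted p = 0.00479). At D0 NIPSNAP1, which marks damaged mitochondria, was lower (-0.23, SE 0.0444, adjusted p = 0.0106). The KO effect differed between days for PRKAG1 (0.41, SE 0.0590, adjusted p = 0.00392) and NIPSNAP1 (0.36, SE 0.0629, adjusted p = 0.0125), both more positive at D6, and for none of the 77 list genes of the H2A.X experiment.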

How the data were processed

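RNA-Seq of HUDEP-2 cells was used in 10 libraries of the H2A.X and 12 of the BAZ1B experiment. The authors deposited raw counts of reads per gene, without normalization, after mapping with STAR 2.7.0f to hg38 and, per the labels, counting with featureCounts of Subread 1.6.4. No library was left out. Replicates are subclones or, where no source says so, samples whose spread may be technical, and p-values cover only the spread between these samples.

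Each experiment was fitted on its own with edgeR 4.0.16 in R 4.3.3. The filterByExpr step (minimum count 10, minimum total 15) kept 13236 and 13879 genes. After TMM normalization, a quasi-likelihood fit held 1 coefficient for every genotype-day group. Tests are two-sided, and a call is a Benjamini-Hochberg adjusted p below 0.05 over all tested genes. Normalized counts are counts divided by the relative effective library size. RPKM and gene positions used GENCODE v44 on GRCh38, matched by gene name. The promoter sequences are RefSeq's. Alternatives were DESeq2 1.42.0 (its size factors or its Wald test), no filter, a replicate block, a correction for transcript length and GC content (splines with 5 degrees of freedom), both together, and each library left out. Leaving out the D6 libraries marked Redo was added after seeing the data. Deviations of same-numbered D0 and D6 libraries correlated by 0.269 to 0.549 in the H2A.X experiment and by 0.107 to 0.552 in BAZ1B KO, so the numbers were taken to pair the days there. KO and WT libraries of the same number had correlations of 0.101 to 0.233 in the H2A.X experiment, all above the limit of 0.1, so blocked values stand beside those results too, although no source says what a number shared by KO and WT marks and the deviations of 2 WT libraries mirror each other. The numbers did not pair the days in BAZ1B WT (-0.0449 to 0.199) or KO with WT in that experiment (-0.123 to 0.222). Fits were tested on simulated data.

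The members and lists were chosen with earlier results of these data known. All members are named in each comparison, and of the wider lists the up to 4 genes with the lowest adjusted p among those called whose mean normalized count was 50 or more. One gene of the pathway lists that this rule named is counted but its values are not reported here.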

Additional observations from a re-analysis of the deposited data

Results flagged for a closer look

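In the BAZ1B experiment 2 of the 9 tested members had KO effects that differed between the days, by the test of the difference itself, where 2.47% of all tested genes did. For ULK1 the D6 effect was more negative than the D0 effect, by -0.55 (SE 0.118, adjusted p = 0.0306). For BNIP3L it was more positive, by 0.39 (SE 0.0902, adjusted p = 0.0431). Both were close to the threshold, and of the 12 fits that left out 1 library the call was lost in 6 for ULK1 and in 7 for BNIP3L.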

How the results depend on the processing

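Of 16 calls in the BAZ1B experiment, the 14 for KO against WT at D6 and for D6 against D0 kept their side of the threshold in all 18 alternatives, and no called member reversed in either experiment. With each library left out in turn, the number of members called stayed at 3 for KO against WT at D6, 6 for D6 against D0 in WT, 5 in KO and 0 for KO against WT at D0 in the BAZ1B experiment, and ran from 0 to 2 for the difference of the KO effects. In the H2A.X experiment it ran from 0 to 3 for KO against WT at D0, from 0 to 5 at D6, from 0 to 1 for D6 against D0 in WT, from 2 to 6 in KO and from 0 to 3 for the difference of the KO effects. With no filter on low counts, 2 members were called for KO against WT at D0 and 5 at D6, 1 for D6 against D0 in WT and 4 for the difference of the KO effects in the H2A.X experiment, and 2 for KO against WT at D0 in the BAZ1B experiment. The DESeq2 Wald test called 1, 1 and 2 members for KO against WT at D0, D6 against D0 in WT and the difference of the KO effects in the H2A.X experiment, and the replicate block 2, 1 and 1. DESeq2 also called 4 members for KO against WT at D6 and 6 for D6 against D0 in KO there, beside 3 and 5 in the main fit. D6 against D0 in WT there also had 1 call with the length and GC correction, alone or with the replicate block. Over all genes the main fit called 111 higher and 154 lower in that comparison. With the length and GC correction alone these were 146 and 210, with the DESeq2 Wald test 429 and 584, and with no filter 597 and 674. Without the D6 libraries marked Redo, KO replicate 3 stands alone at D6, so only effect sizes are given for that fit. With the block, KO against WT called GABARAPL1 (adjusted p = 0.0433) and GABARAPL2 (adjusted p = 0.0470) at D0 and ULK1 (adjusted p = 0.0337) at D6 of the H2A.X experiment, and beyond these and the changes given above it altered no call of a member. The number of calls over all genes changed with the setting too. In the H2A.X experiment, KO against WT at D0 had 2434 genes higher and 2217 lower in the main fit. These were 1481 and 1069 without KO replicate 1 of D0, and 2894 and 2752 without KO replicate 3 of D6. Far fewer genes passed without WT replicate 2 of D0, a fit that leaves 1 WT library at that day. With no filter they were 2708 and 2233 of 25504 genes. At D6 the main fit had 2939 and 2761, and there were 3444 and 3213 without KO replicate 3 of D6. The median log2 fold change over all genes moved by at most 0.0546 in any setting.

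Members that were not called could change direction, and the cause was not tested. With the length and GC correction, KO against WT in the H2A.X experiment gave -0.31 for FOXO3 and 0.081 for GABARAP at D0 and 0.75 for GABARAP, 0.012 for MAP1LC3B and 0.19 for SQSTM1 at D6, and D6 against D0 in KO gave -0.026 for BNIP3L. With that correction and the replicate block, the values were 0.26 for GABARAP and 0.082 for SQSTM1 at D0, 0.89 for GABARAP, 0.080 for MAP1LC3B and 0.30 for SQSTM1 at D6, and -0.077 for BNIP3L in KO between days. The block alone gave 0.064 for GABARAP at D6. Without the Redo libraries, KO against WT at D6 gave -0.19 for ULK1, D6 against D0 in KO -0.083 for BNIP3L, -0.28 for GABARAP and -0.33 for GABARAPL1, and the difference of the KO effects -0.077 for GABARAP, -0.65 for GABARAPL1 and -0.25 for SQSTM1. SQSTM1 at D6 of the BAZ1B experiment was 0.0029 with DESeq2 and 0.0070 without the filter. With single libraries left out, the log2 values of members that turned are given as ranges. For KO against WT at D0 in the H2A.X experiment these were FOXO3 -0.016 to 0.50 and BNIP3 -0.43 to 0.46. For KO against WT at D6 in the H2A.X experiment these were GABARAP -0.34 to 0.30, MAP1LC3B -0.37 to 0.012 and SQSTM1 -0.38 to 0.033. For D6 against D0 in WT in the H2A.X experiment these were GABARAP -0.55 to 0.076, MAP1LC3B -0.0601 to 0.46 and TFEB -1.52 to 0.49. For D6 against D0 in KO in the H2A.X experiment these were BNIP3L -0.21 to 0.30. For the difference of the KO effects in the H2A.X experiment these were GABARAPL1 -0.23 to 1.01, GABARAPL2 -0.10 to 0.58, SQSTM1 -0.0698 to 0.36 and TFEB -1.42 to 0.59. For KO against WT at D0 in the BAZ1B experiment these were ULK1 -0.029 to 0.08, GABARAPL1 -0.074 to 0.32, GABARAPL2 -0.059 to 0.018 and SQSTM1 -0.061 to 0.025. For KO against WT at D6 in the BAZ1B experiment these were BNIP3 -0.31 to 0.31, MAP1LC3B -0.072 to 0.038 and SQSTM1 -0.037 to 0.038. For D6 against D0 in WT in the BAZ1B experiment these were SQSTM1 -0.0303 to 0.036. For D6 against D0 in KO in the BAZ1B experiment these were SQSTM1 -0.031 to 0.068. For the difference of the KO effects in the BAZ1B experiment these were MAP1LC3B -0.092 to 0.018 and SQSTM1 -0.027 to 0.064.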
